A study of Mus musculus with 10 samples.

Results

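The genes by which cells hold on to a surface and lay down a basement membrane were followed in mouse embryonic stem cells (mESCs) that had been kept either in suspension or attached to gelatin. The set held 48 genes of 25965 annotated features, chosen by name and function but with earlier results of these data known. It comprised 13 integrin subunits, 16 genes of the extracellular matrix with its receptor dystroglycan, and 19 genes of the adhesion plaque inside the cell. RNA-seq libraries, 10 in all, had been made from male C57BL/6 mESCs of 2 independently derived lines, all in 2i medium, a serum-free medium with inhibitors of MEK and GSK3 that holds mESCs in the naive state. The lines were derived under the study's own Keniry2022 conditions, sampled at the start (passage 0, p0), then divided and cultured for 10 or 20 passages (p10, p20). Keniry2022 cells grew in suspension in dishes not treated for tissue culture, at higher density, in more medium and with passaging every 24 h. Mulas2019 cells grew on gelatin and were passaged every 48 h. In the labels Keniry2022 is New or Off and Mulas2019 is Old or On. Each of the 5 groups had 2 libraries, 1 per line. Attachment, density, medium volume and passaging interval changed together between the methods and cannot be told apart.

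Integrins are paired alpha and beta chains that cross the cell membrane, binding matrix proteins outside and, through talin, kindlin and ILK, the actin cytoskeleton inside. Basement membranes are thin sheets of matrix built from a laminin network and a type IV collagen network, which nidogens and perlecan connect. In the early embryo these sheets lie beneath the epiblast, and mESCs make several of the same chains in culture. Where integrins cluster on a stiff surface, vinculin, paxillin, focal adhesion kinase (FAK) and Src gather in focal adhesions.

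Levels are given as log2 RPKM, reads scaled to the exon length of the gene and to the total of the library, so that levels can be set side by side between genes. A log2 difference of 1 is a ratio of 2. Library totals lay between 24053996 and 30236823 reads, and a library gave a tested member between 139 reads (Itgb4) and 61768 reads (Fn1). All libraries carry the label male, and the study describes a line that lost its Y chromosome while being derived. In each pair 1 library held 13 to 132 reads over 4 Y-linked genes and the other held 4578 to 8140; the low library was replicate 1 in 4 groups and replicate 2 at p20 under Keniry2022. The p0 libraries stood apart from each other: the SD of their log2 difference over features was 0.611, against 0.23 to 0.265 in the other 4 pairs. The labelled cell type was checked against 9 markers of naive mESCs, Nanog and Pou5f1 among them; all 9 were expressed, with a summed level of 1328 to 1778 RPKM. Values come from pools of cells, so fewer cells of a kind and less RNA per cell cannot be told apart.

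To ask how the adhesion genes differed between suspended and attached cells, the 4 Keniry2022 libraries were compared with the 4 Mulas2019 libraries, p10 and p20 together. The chains of the matrix were lower in suspension or did not pass the test, the 4 alpha integrins tested were lower, beta integrins went both ways, and the linkers to actin divided evenly. Of the members tested, Col4a2, Itgb4, Col4a1, Lama1 and Itga5 fell furthest, and Itgb7, Itgb5, Parvb and Fermt2 rose most. Of the 48 members, 38 passed the filter (a log2 value above 0 in at least 50% of the libraries) and were tested; 25 passed at an adjusted p under 0.05, which is 65.8% beside 51.5% of all 11654 features tested. In suspension 18 were lower (47.4%, with 25.5% of all features) and 7 higher (18.4%, with 25.9%), and the median difference of the members was -0.15, where that of all features was -0.003. As the members were chosen with earlier results known, these shares describe the list and do not test it. Among the called members 5 differed by 0.5 or more and 2 by 1 or more, with Itgb4 in both counts. The share of all features with differences of those sizes is not given here. Itgb4 passed the filter through its Mulas2019 libraries alone, so its call in this and later counts is no support; without it 24 of 37 were called, 17 of them lower. The p-values measure the spread of 2 lines sampled at 2 passages, not of independent derivations.

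**Figure D1:**
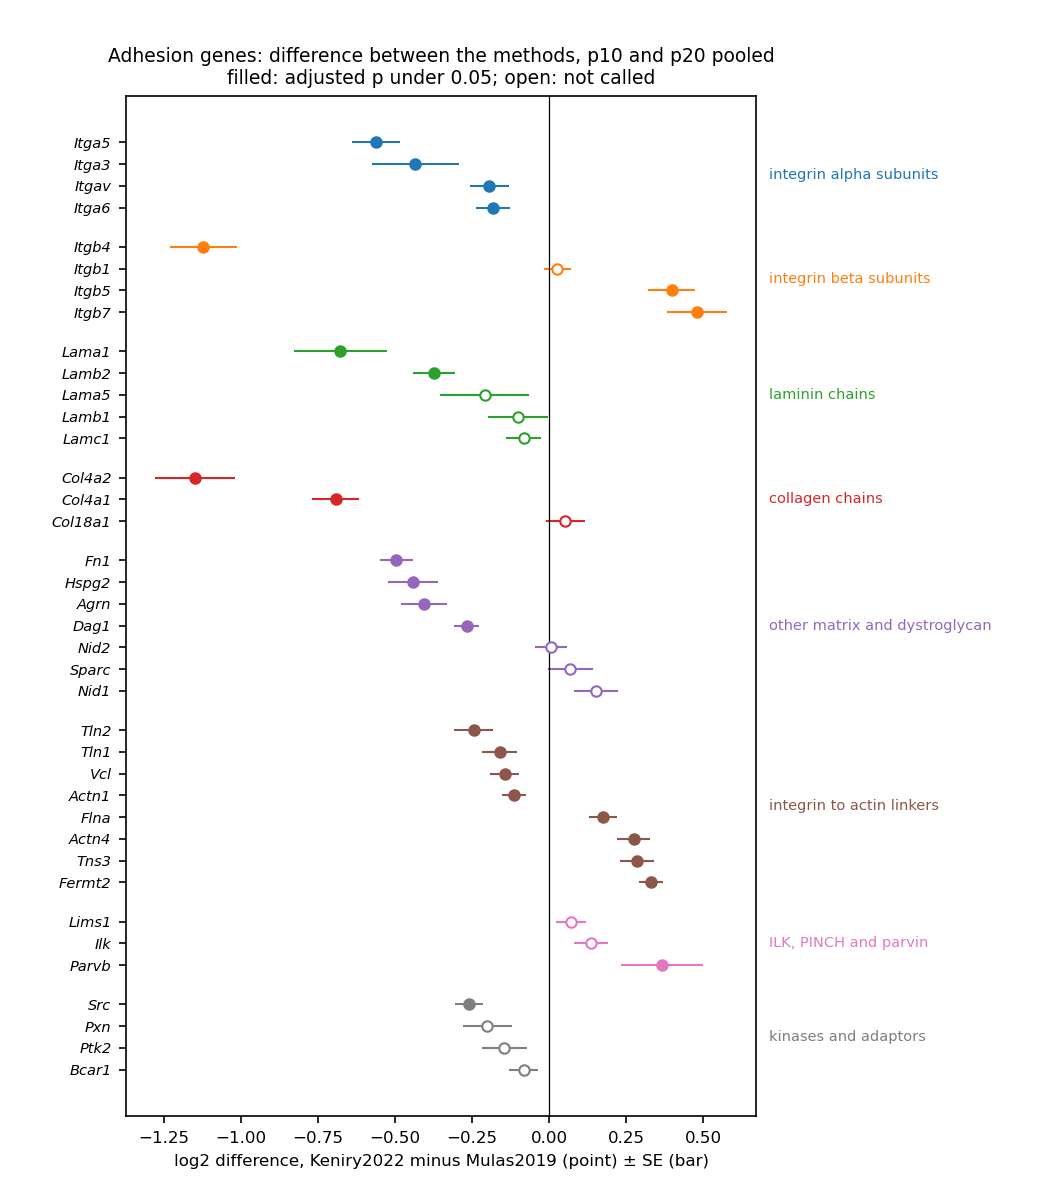
Log2 difference between the methods (Keniry2022 minus Mulas2019, p10 and p20 pooled; x axis) for the 38 members tested, by class. Points are fitted differences, bars the SE, and filled points passed an adjusted p of 0.05; 18 filled points lie to the left of 0 and 7 to the right, with Col4a2 and Itgb4 beyond -1.

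The member genes are long and rich in GC, and their differences moved with these properties. Their median exon length was 5878 bases and their median GC content 54.3%, against 3437 bases and 49.9% over the features tested, and 79.7% of features had shorter exons than the members' median. When the differences were corrected for the smooth trend of all features with exon length and GC, 18 members were called (47.4% of all features), 7 lower (19.8%) and 11 higher (27.6%), and the members' median moved to 0.02. All 7 higher members kept their call, as did 7 of the 18 lower ones: Col4a2 (-0.91), Itgb4 (-0.87), Col4a1 (-0.46), Lama1 (-0.44), Itga5 (-0.40), Fn1 (-0.28) and Dag1 (-0.15). Among the 11 lower calls that were lost were Hspg2 (-0.09, adjusted p = 0.461), Agrn (-0.16, 0.0929) and Itga3 (-0.23, 0.177). Ilk, Col18a1, Nid1 and Nid2 were called higher only after the correction.

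**Figure D2:**
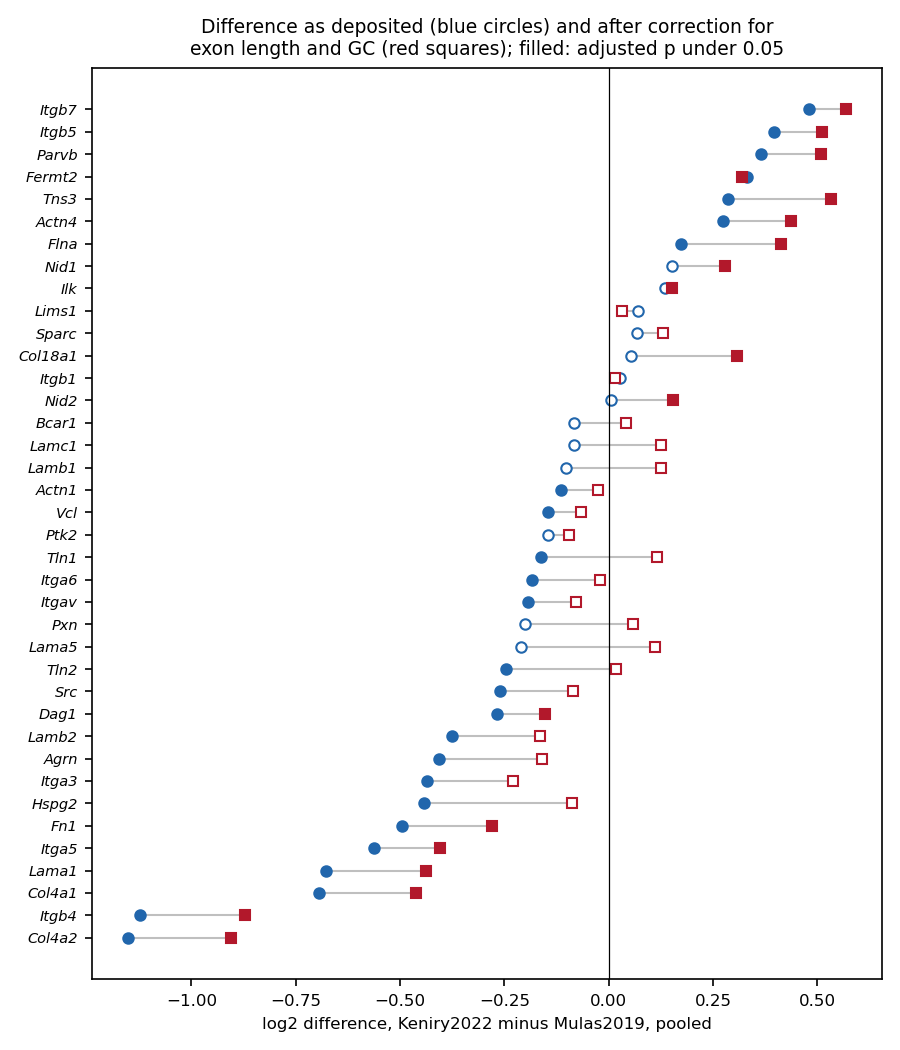
Pooled log2 difference (x axis) of each of the 38 members as deposited (blue circles) and after correction for exon length and GC (red squares); filled symbols passed an adjusted p of 0.05. Most symbols move to the right, and 7 members remain called below 0 while 11 are called above it.

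The collagen chains held the widest difference among the members tested. Col4a1 and Col4a2 encode the chains of the most common type IV collagen trimer, and the genes lie head to head on chromosome 8 (GRCm38, chr8:11198423-11312826 on the minus strand and chr8:11312805-11449287 on the plus strand), with start sites in RefSeq that overlap by 22 bases. That stretch is shown because both genes are read from it in opposite directions. It is given on the plus strand (chr8:11312805-11312826), with no capitals, from RefSeq on GRCm38.p6.
Col4a1 and Col4a2 shared start: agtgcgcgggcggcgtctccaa
Col4a2 levels were 0.20 and 0.29 (p10), then 0.52 and 0.63 (p20) under Keniry2022, 1.55 and 1.51 (p10), then 1.84 and 1.34 (p20) under Mulas2019, and 0.14 and 1.09 at p0. Those of Col4a1 were 1.78 and 1.89 (p10), then 1.83 and 1.93 (p20) under Keniry2022, 2.41 and 2.55 (p10), then 2.75 and 2.49 (p20) under Mulas2019, and 1.03 and 1.89 at p0. For both chains the 4 suspended libraries lay below all 4 attached libraries. Col4a2 reached 0.45 of its attached level (log2 difference -1.15 ± 0.13 (SE), adjusted p = 0.000125) and Col4a1 0.618 (log2 difference -0.69 ± 0.08 (SE), adjusted p = 0.000116). Reads in the stretch where the genes overlap cannot be told apart, since the strand setting of the counting is not stated. Col18a1, the parent of endostatin and the most abundant collagen chain measured here, was 4.72 and 4.68 (p10), then 4.77 and 4.65 (p20) in suspension, 4.49 and 4.60 (p10), then 4.74 and 4.78 (p20) on gelatin and 4.37 and 4.56 at p0, and the methods overlapped (difference 0.05 ± 0.06, adjusted p = 0.505). Col4a5, a chain of other type IV trimers, had 3 to 32 reads and was not tested.

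Among the 5 laminin chains, all tested, Lama1 and Lamb2 were lower in suspension and the other 3 did not pass the test. Lama1, the alpha chain of laminin-111, the first laminin of the embryo, measured 1.89 and 1.94 (p10), then 1.36 and 1.79 (p20) under Keniry2022, 2.63 and 2.58 (p10), then 2.41 and 2.06 (p20) under Mulas2019, and 1.30 and 2.21 at p0. The lowest attached library stood above the highest suspended one (log2 difference -0.68 ± 0.15 (SE), adjusted p = 0.00403). Lamb2, a beta chain that can take the place of Lamb1 in the trimer, measured 2.54 and 2.73 (p10), then 2.67 and 2.83 (p20) under Keniry2022, 3.0 and 3.01 (p10), then 3.14 and 3.11 (p20) under Mulas2019, and 2.26 and 2.57 at p0, again with no overlap (log2 difference -0.37 ± 0.07 (SE), adjusted p = 0.0013; -0.16 and adjusted p = 0.0714 after the length and GC correction). The gamma chain Lamc1, the most abundant of the laminins, gave 6.35 and 6.51 (p10), then 6.40 and 6.56 (p20) under Keniry2022, 6.44 and 6.51 (p10), then 6.65 and 6.55 (p20) under Mulas2019 and 5.43 and 6.36 at p0. Its methods overlapped (-0.08 ± 0.06, adjusted p = 0.233), as did those of Lamb1 (-0.10, 0.409) and Lama5 (-0.21, 0.248), the main alpha chain of later basement membranes.

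Of the other matrix genes and dystroglycan 4 of 7 were lower in suspension and the other 3 were not called. Fn1 encodes fibronectin, the ligand of integrin alpha5 beta1, and was the most abundant member of the whole set. Its levels were 7.30 and 7.41 (p10), then 7.45 and 7.55 (p20) under Keniry2022, 7.86 and 7.94 (p10), then 8.02 and 7.87 (p20) under Mulas2019, and 6.59 and 7.45 at p0, and every suspended library lay below every attached one (log2 difference -0.50 ± 0.05 (SE), adjusted p = 0.000111, a ratio of 0.709). Perlecan (Hspg2), a heparan sulphate proteoglycan of the basement membrane, measured 3.76 and 3.85 (p10), then 3.84 and 3.87 (p20) under Keniry2022, 4.02 and 4.25 (p10), then 4.37 and 4.43 (p20) under Mulas2019, and 2.38 and 3.64 at p0. Agrin (Agrn), another such proteoglycan, measured 5.31 and 5.39 (p10), then 5.29 and 5.36 (p20) under Keniry2022, 5.53 and 5.70 (p10), then 5.94 and 5.82 (p20) under Mulas2019, and 4.31 and 5.03 at p0. Both were lower in all 4 suspended libraries (log2 difference -0.44 ± 0.08 (SE), adjusted p = 0.00134 for Hspg2; log2 difference -0.41 ± 0.07 (SE), adjusted p = 0.0014 for Agrn), and both lost the call after the correction for length and GC. Dag1, whose product dystroglycan binds laminin without integrins, was lower by a smaller step (log2 difference -0.27 ± 0.04 (SE), adjusted p = 0.000519). Nidogens Nid1 (0.15, adjusted p = 0.0972) and Nid2 (0.01, 0.942) and the collagen-binding protein Sparc (0.07, 0.449) were not called.

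Over collagens, laminins and other matrix genes together, 8 of 15 tested were lower and the other 7 were not called. Of all features, 25.5% were lower and 25.9% higher. After the correction for length and GC, Col4a1, Col4a2, Lama1, Fn1 and Dag1 kept the lower call. Col18a1, Nid1 and Nid2 were then called higher. Markers of the cells that secrete basement membrane in the embryo were examined beside the matrix counts. None of 10 primitive and parietal endoderm markers passed the filter. The defining Gata4, Gata6 and Sox17 had at most 96, 47 and 39 reads in a library and Foxa2 0 to 8. The summed level of the 10 was lower in suspension, at 2.19 to 2.59 RPKM under Keniry2022, 2.77 to 3.18 under Mulas2019 and 2.41 to 2.69 at p0. The list was divided: the mean levels of Dab2, Foxa2 and Sox7 were higher in suspension, with ranges that overlapped. Of the markers with lower means, only Amn had ranges that did not overlap. The 6 trophoblast markers summed to 2.50 to 3.04 RPKM in suspension, 3.22 to 4.31 on gelatin and 2.53 to 2.80 at p0. Eomes was the 1 tested and was lower in suspension (-0.40). The mean levels of Cdx2 and Gata3 were higher in suspension, with ranges that overlapped. The part of these cell types in the matrix result was not tested. Fibroblast or feeder markers summed to 0.384 to 0.910 RPKM under Keniry2022, 0.331 to 0.497 under Mulas2019 and 0.747 to 1.01 at p0, none of 8 was tested, and Dcn and Postn had 0 reads in every library. Formative or primed epiblast markers summed to 34.2 to 41.0 RPKM in suspension, 21.7 to 26.8 on gelatin and 21.0 to 23.7 at p0. Most of that sum was Dnmt3b (4.94 to 5.22 log2 RPKM in suspension, 4.21 to 4.48 on gelatin). The mean levels of Otx2, Sox3 and T were lower in suspension, with ranges that overlapped.

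All 4 alpha integrins tested were lower in suspension. Itga5, the fibronectin receptor chain and the most abundant of the class, is encoded on chromosome 15 (chr15:103344289-103366763). Its levels were 4.22 and 4.24 (p10), then 4.13 and 4.38 (p20) under Keniry2022, 4.75 and 4.70 (p10), then 5.03 and 4.75 (p20) under Mulas2019, and 4.05 and 4.24 at p0. All 4 suspended libraries lay below all 4 attached ones (log2 difference -0.56 ± 0.08 (SE), adjusted p = 0.000309, a ratio of 0.677). Itga3, whose pair with beta1 binds laminin-332 and laminin-511, measured 2.66 and 2.33 (p10), then 1.99 and 2.40 (p20) under Keniry2022, 3.02 and 2.81 (p10), then 2.80 and 2.50 (p20) under Mulas2019, and 2.44 and 2.49 at p0. Here 1 attached library lay within the range of the suspended ones (log2 difference -0.44 ± 0.14 (SE), adjusted p = 0.0252). Itgav, a chain of the RGD-binding integrins, measured 2.68 and 2.74 (p10), then 2.83 and 2.89 (p20) under Keniry2022, 2.90 and 2.90 (p10), then 3.06 and 3.06 (p20) under Mulas2019, and 2.28 and 2.90 at p0, with a narrow gap between the methods (log2 difference -0.19 ± 0.06 (SE), adjusted p = 0.0266). The laminin receptor chain Itga6 was lower by a similar step (-0.18, adjusted p = 0.0204). The calls of Itga3, Itgav and Itga6 were lost after the correction for length and GC. Itga1, Itga2, Itga7 and Itga9 were not tested: Itga2 had 0 to 7 reads, and Itga1 had 85 and 103 reads at p10 and 40 and 53 at p20 in suspension, 5 and 20 and then 21 and 12 on gelatin, and 18 and 28 at p0. Itga9 had 181 and 163 reads at p10 and 184 and 127 at p20 in suspension, 71 and 128 and then 89 and 95 on gelatin, and 95 and 126 at p0. By level, all 4 suspended libraries lay above all 4 attached ones for Itga1 and for Itga9, the opposite of the alpha integrins tested. In a limma fit with no filter on low values, Itga1 was higher in suspension by 2.31 ± 0.46 (SE, adjusted p = 0.00491). Itga9 was higher by 0.72 ± 0.19 (adjusted p = 0.016). Itga2 (1.35, adjusted p = 0.0661) and Itga7 (-0.50, 0.195) were not called in that fit. Reads of Itga7 ran from 72 to 167.

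The beta integrins went in both directions. Itgb1, the partner of most alpha chains and the most abundant integrin gene measured, stood at 5.77 and 5.73 (p10), then 5.93 and 5.78 (p20) in suspension, 5.81 and 5.76 (p10), then 5.76 and 5.78 (p20) on gelatin and 5.54 and 5.92 at p0. The methods overlapped (0.03 ± 0.04, adjusted p = 0.636). Itgb4, the partner of alpha6 in hemidesmosomes, was low throughout. Among the members tested its difference was next in size to that of Col4a2. Itgb4 measured -0.11 and -0.25 (p10), then -0.38 and -0.11 (p20) under Keniry2022, 0.97 and 0.90 (p10), then 0.97 and 0.79 (p20) under Mulas2019, and -0.28 and -0.04 at p0. Suspended and attached libraries were well apart, at a ratio of 0.459, and p0 stood with the suspended cells. In a fit with no filter on low values, so that its high group did not admit it, the difference was -1.12 ± 0.10 (SE; limma, adjusted p = 0.000196). Itgb5, the partner of alphav in the vitronectin receptor, measured 4.65 and 4.84 (p10), then 4.73 and 4.85 (p20) under Keniry2022, 4.18 and 4.35 (p10), then 4.57 and 4.38 (p20) under Mulas2019, and 4.31 and 4.32 at p0. Itgb7, known as the partner of alpha4 and alphaE on lymphocytes, measured 3.27 and 3.24 (p10), then 2.93 and 2.94 (p20) under Keniry2022, 2.65 and 2.77 (p10), then 2.62 and 2.42 (p20) under Mulas2019, and 3.24 and 3.13 at p0. Every suspended library exceeded every attached one for both (log2 difference 0.40 ± 0.08 (SE), adjusted p = 0.00201 for Itgb5; log2 difference 0.48 ± 0.10 (SE), adjusted p = 0.00274 for Itgb7). Itgb3 had 81 to 179 reads and was not tested.

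The stretches upstream of Itga5 and Itgb5 are printed because these integrin genes differed in opposite directions. They are the 250 bases before each RefSeq start site (GRCm38.p6), read 5′ to 3′ on the strand of the gene, at chr15:103366792-103367041 (minus strand) and chr16:33829415-33829664 (plus strand), free of annotated exons. Capitals mark the GC box GGGCGG on either strand.
Itga5: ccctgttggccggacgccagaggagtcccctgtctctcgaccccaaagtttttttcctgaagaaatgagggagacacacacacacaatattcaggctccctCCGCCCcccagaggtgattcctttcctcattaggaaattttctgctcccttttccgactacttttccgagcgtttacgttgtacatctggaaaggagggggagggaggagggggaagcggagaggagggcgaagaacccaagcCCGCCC
Itgb5: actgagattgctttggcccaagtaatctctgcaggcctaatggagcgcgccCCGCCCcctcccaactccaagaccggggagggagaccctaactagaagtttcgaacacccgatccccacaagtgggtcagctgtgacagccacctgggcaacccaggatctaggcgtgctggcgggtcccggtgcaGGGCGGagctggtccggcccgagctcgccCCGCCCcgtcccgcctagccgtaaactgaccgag
The GC box was found in both. Over the whole 250 bases before the start site, annotated exons included, it stood in 26 of the 35 members with a RefSeq window (74.3%) and in 32.7% of all 32851 windows. Of the lower members 9 of 13 held it and of the higher members 6 of 7. The letters of 3 other motifs were searched on both strands in the same windows: TEAD (GGAATG) in 17.1% of members and 12.6% of all windows, AP-1 (TGANTCA) in 5.7% and 6.7%, and the hypoxia response core (ACGTG) in 14.3% and 16.6%. For each motif a member counted if any of its windows held it, while all windows were counted singly. The shares of members and of windows are thus not like for like.

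**Figure D3:**
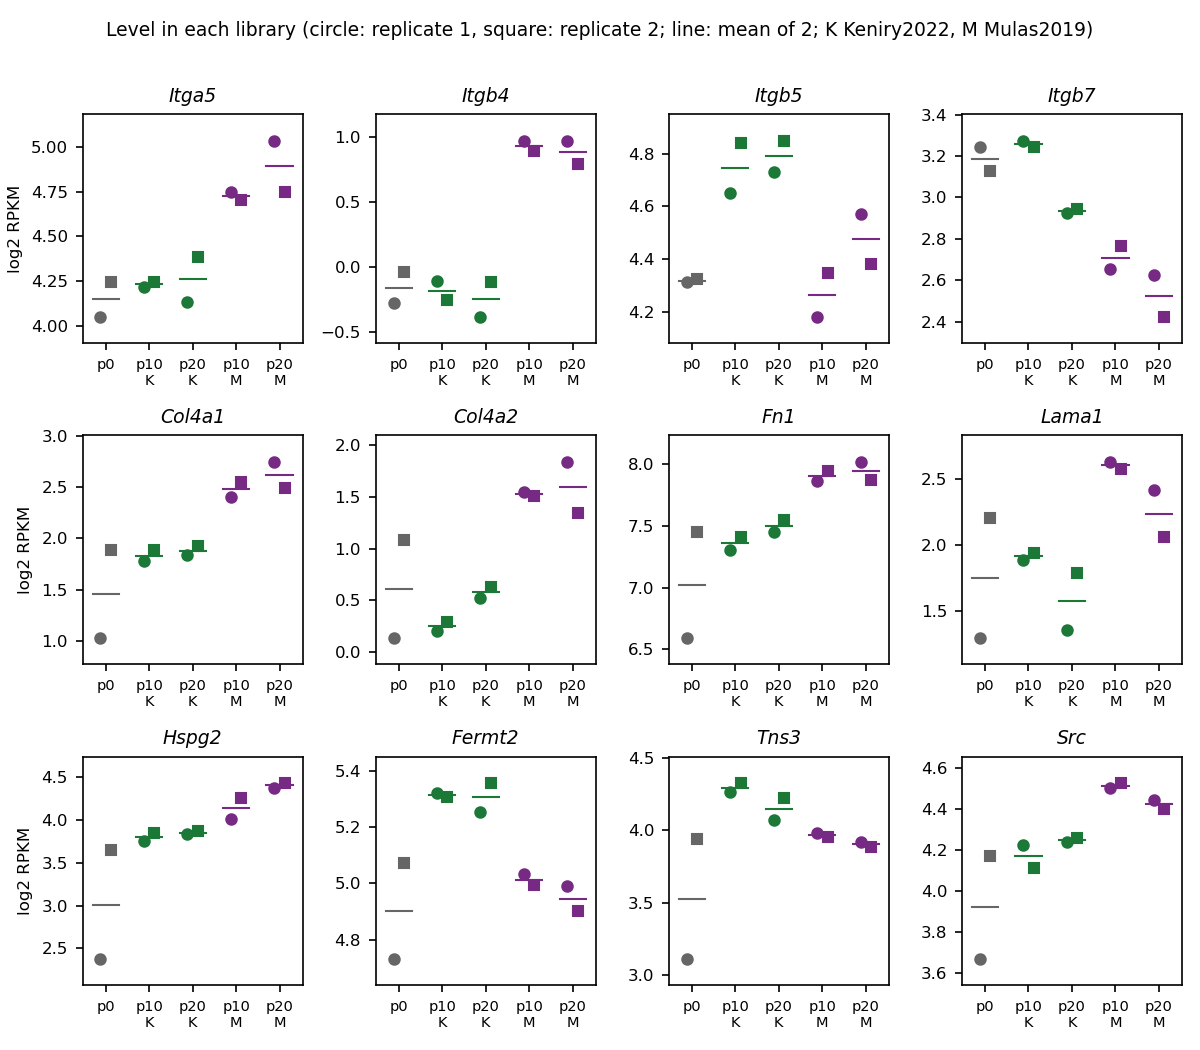
Level (log2 RPKM, y axis) of 12 members in each of the 10 libraries, by group on the x axis (K, Keniry2022; M, Mulas2019); circles are replicate 1, squares replicate 2 and lines the mean of the 2. In each panel the 4 green Keniry2022 points lie wholly above or wholly below the 4 purple Mulas2019 points, and p0 replicate 1 lies far below replicate 2 for Fn1, Hspg2, Col4a1, Col4a2, Lama1 and Tns3. The 12 are a selection: of the 38 members tested 20 overlapped between the methods, and 46.5% of all features tested did not overlap. Itgb4 passed the filter through its Mulas2019 libraries alone.

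The linkers between integrins and actin were divided, with 4 of the 8 tested higher and 4 lower in suspension. Kindlin-2 (Fermt2), which binds beta integrin tails and helps to activate them, measured 5.32 and 5.31 (p10), then 5.25 and 5.36 (p20) under Keniry2022, 5.03 and 4.99 (p10), then 4.99 and 4.90 (p20) under Mulas2019, and 4.73 and 5.07 at p0. Tensin 3 (Tns3), which joins integrin tails to actin in long-lived adhesions, measured 4.26 and 4.33 (p10), then 4.07 and 4.22 (p20) under Keniry2022, 3.98 and 3.96 (p10), then 3.92 and 3.89 (p20) under Mulas2019, and 3.11 and 3.94 at p0. The actin cross-linker Actn4, the most abundant of the class, measured 6.84 and 6.84 (p10), then 6.65 and 6.79 (p20) under Keniry2022, 6.42 and 6.49 (p10), then 6.60 and 6.50 (p20) under Mulas2019, and 6.32 and 6.43 at p0. For each of the 3, all suspended libraries were above all attached ones (Fermt2, log2 difference 0.33 ± 0.04 (SE), adjusted p = 0.000151; Tns3, log2 difference 0.29 ± 0.06 (SE), adjusted p = 0.00193; Actn4, log2 difference 0.27 ± 0.05 (SE), adjusted p = 0.00198). Filamin A (Flna), another cross-linker, was higher by 0.17 ± 0.05 (adjusted p = 0.0108). The talins, which link integrin tails directly to actin, were lower (Tln1, -0.16, adjusted p = 0.0393; Tln2, -0.25, 0.00917), as were their partner vinculin (Vcl, -0.15, 0.029) and Actn1 (-0.11, 0.0334). These 4 lower calls were lost after the correction for length and GC, where both talins were above 0 (0.12 and 0.02). Kindlin-1 (Fermt1) had 7 to 34 reads and was not tested.

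The window upstream of Fermt2 is shown because it and Vcl were the 2 members (5.7%) with a CArG box, the site of serum response factor. Of all windows 1.5% held that box, with members and windows counted in the unlike ways given for the GC box. The Fermt2 stretch covers chr14:45530119-45530315 (GRCm38.p6, minus strand, the exon-free 197 bases of the RefSeq window), and capitals mark the CArG box and 1 GC box.
Fermt2: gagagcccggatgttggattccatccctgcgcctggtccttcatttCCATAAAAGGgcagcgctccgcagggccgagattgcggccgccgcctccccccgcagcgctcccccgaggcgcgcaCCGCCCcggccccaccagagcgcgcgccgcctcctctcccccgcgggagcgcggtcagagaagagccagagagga
The members of the pair differed in direction between the methods, with Fermt2 higher and Vcl lower in suspension.

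ILK, PINCH and parvin form the complex that joins beta integrin tails to actin beside talin. Parvb, beta-parvin, was the 1 member of this class that passed, with 3.41 and 3.64 (p10), then 3.01 and 3.14 (p20) under Keniry2022, 3.09 and 3.08 (p10), then 2.81 and 2.76 (p20) under Mulas2019, and 3.17 and 3.08 at p0. The ranges of the methods overlapped, with 1 p20 suspended library below both p10 attached ones (log2 difference 0.37 ± 0.13 (SE), adjusted p = 0.0402). The call was lost with the replicate block, in the numbering of the labels (adjusted p = 0.052) or crossed (0.0521), and without either p10 Keniry2022 library or either p20 Mulas2019 library (0.0925 to 0.101). Lims1, which encodes PINCH1 and was the most abundant of the class, measured 4.44 and 4.33 (p10), then 4.46 and 4.33 (p20) under Keniry2022, 4.42 and 4.27 (p10), then 4.29 and 4.30 (p20) under Mulas2019, and 3.89 and 4.52 at p0 and did not pass (0.07 ± 0.05, adjusted p = 0.236). Ilk gave 0.14 ± 0.05 and did not pass (adjusted p = 0.058). Lims2 (1 to 8 reads) and Parva (143 to 309 reads) were not tested.

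Of the kinases and adaptors 1 of 4 tested passed. Src, the tyrosine kinase that acts with FAK at adhesions and the most abundant of the class, measured 4.23 and 4.11 (p10), then 4.24 and 4.26 (p20) under Keniry2022, 4.50 and 4.53 (p10), then 4.45 and 4.40 (p20) under Mulas2019, and 3.67 and 4.17 at p0. All suspended libraries were below all attached ones (log2 difference -0.26 ± 0.05 (SE), adjusted p = 0.00113), though the call was lost after the correction for length and GC (now -0.09, adjusted p = 0.142). FAK itself (Ptk2, -0.15, 0.121), paxillin (Pxn, -0.20, 0.0549) and p130Cas (Bcar1, -0.08, 0.163) were not called. Zyxin (Zyx) had 56 to 88 reads and was not tested. Over linkers, the ILK complex and kinases together, 5 of 15 tested were lower and 5 higher, beside 25.5% and 25.9% of all features. After the correction for length and GC none of the 5 lower calls remained. The 5 higher calls were kept, and Ilk was called higher as well.

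Reckoned by library, 12 of the 38 tested members had all 4 suspended libraries below all 4 attached ones and 6 had them all above. That is 18 of 38, beside 46.5% of all features tested (23.4% below and 23.1% above).

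To see whether the differences were present at each passage, the methods were compared at p10 and at p20 in 1 model of the 8 libraries with 4 groups. At p10, 26 of 38 members were called, 18 lower and 8 higher (48.3% of all features, 23.5% lower and 24.8% higher). At p20, 18 were called, 13 lower and 5 higher (36.7%, with 18.2% and 18.6%). All 18 were also called at p10 in the same direction. The share of all features called alike at both passages was not worked out, so this overlap is not particular to the members. After the correction for length and GC the counts were 9 lower and 12 higher at p10 (20.3% and 26% of all features) and 8 and 8 at p20 (13.6% and 22.8%). Col4a2 differed by -1.29 ± 0.16 at p10 and -1.02 ± 0.16 at p20, and Itgb4 by -1.11 and -1.13 (SE 0.15 at each). Agrn and Hspg2 went from -0.26 and -0.34 at p10 to -0.55 and -0.55 at p20, while FAK (Ptk2) was -0.30 at p10 (adjusted p = 0.00244) and 0.01 at p20 (0.927). The change of the method difference from p10 to p20 was then tested directly. It was called for 0 members and 0 features (0%) by limma; 6 members passed an unadjusted p of 0.05, as did 1836 features (15.8%), and voom on whole reads called 0 members. Among the 6, Ptk2 had the lowest p (0.31 ± 0.07, adjusted p = 0.132).

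**Figure D4:**
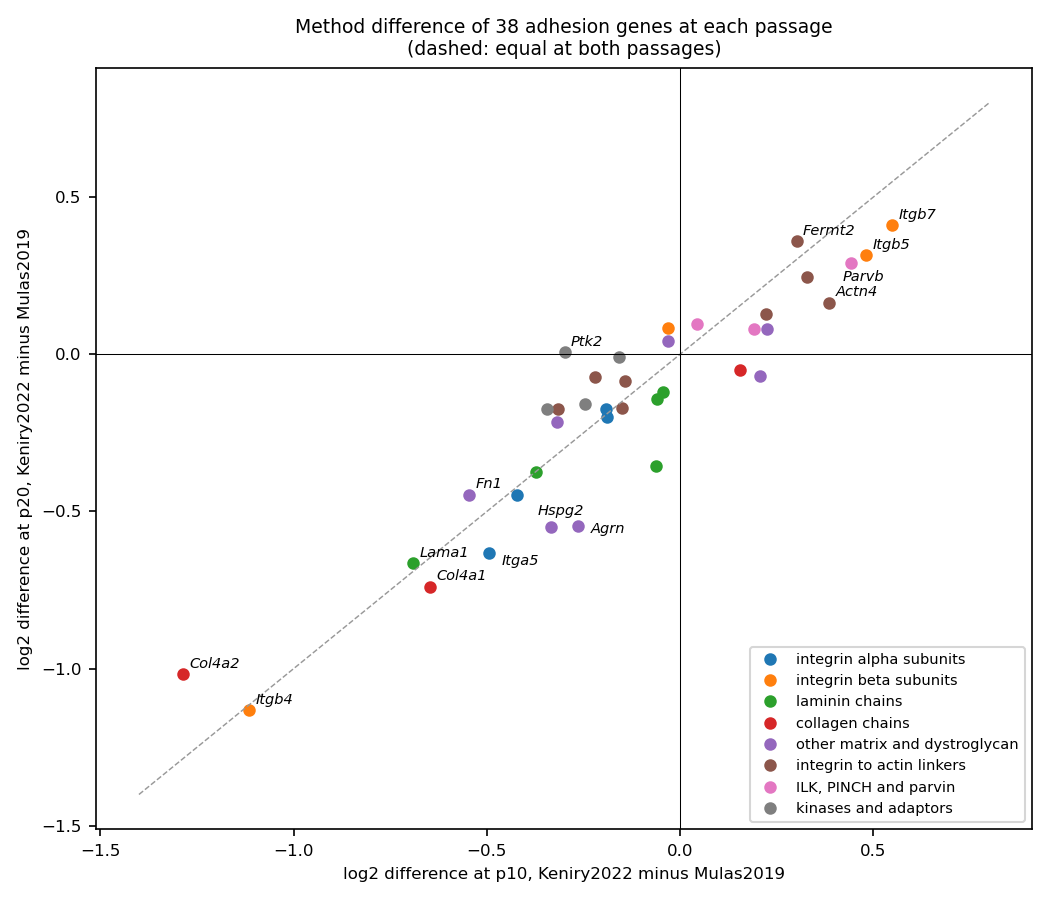
Log2 difference between the methods at p10 (x axis) and at p20 (y axis) for the 38 members, coloured by class; on the dashed line the passages are equal. Col4a2 and Itgb4 lie farthest down on the left and Itgb7, Itgb5 and Fermt2 on the upper right; both passages were fitted from separate libraries.

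Matched for days in culture rather than passages, Keniry2022 at p20 was set against Mulas2019 at p10. Its libraries are shared with the comparisons above. It called 26 of 38 members, 17 lower and 9 higher (43.4% of all features, 20.7% lower and 22.7% higher), and 10 lower and 14 higher after the correction for length and GC (17.4% and 22.7%). Across the pooled comparison, both passages and the comparison by days, the same 12 members were called lower (Agrn, Col4a1, Col4a2, Dag1, Fn1, Hspg2, Itga5, Itga6, Itgb4, Lama1, Lamb2 and Src) and the same 4 higher (Fermt2, Itgb5, Itgb7 and Tns3). These comparisons share their libraries, and the share of all features called alike in each of them was not worked out. In the pooled comparison the calls of Agrn, Hspg2, Itga6, Lamb2 and Src were lost after the correction for length and GC. Lama1 reached -1.03 ± 0.15 in the comparison by days and Itga3 -0.72 ± 0.17. Parvb, by contrast, was at -0.01 (adjusted p = 0.955) and Itgav at -0.04 (0.583).

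Whether either method moved the adhesion genes away from the starting cells was asked against p0, in a model of all 10 libraries that tested 37 members (Itgb4 did not pass its filter). Mulas2019 was higher than p0 for 17 members and lower for 2 (44.1% of all features were called, 22% in each direction). The highest were Hspg2 (1.26 ± 0.29, adjusted p = 0.0148), Col4a1 (1.09 ± 0.21, 0.0098), Agrn (1.08 ± 0.18, 0.00678), Lama5 (0.99 ± 0.27, 0.0243) and Col4a2 (0.95 ± 0.26, 0.0226). The 2 lower members were Itgb7 (-0.57 ± 0.09) and Ilk (-0.31 ± 0.10). Keniry2022 against p0 gave 0 called members by limma (0.727% of all features, 0.199% higher and 0.528% lower), 18 at an unadjusted p of 0.05 (34.8% of features) and 0 by voom on whole reads. Among those with an unadjusted p under 0.05 were Actn4 (0.40 ± 0.08, adjusted p = 0.0549) and Itgb5 (0.45 ± 0.09, 0.0607). Both comparisons use the same pair of p0 libraries. The median over the members was 0.39 for Mulas2019 and 0.28 for Keniry2022, beside 0.02 and 0.0003 over all features. After the correction for length and GC, Mulas2019 was higher for 10 members and lower for 7 (17.6% and 21.7% of all features) with a median of 0.05, and Keniry2022 higher for 4 and lower for 1 (2.64% and 2.98%) with a median of 0.12.

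These values rest on which p0 library is read. The first p0 library was lower than the second for 32 of 37 members, 19 of them by more than 0.5 on the log2 scale, with a median difference of -0.504. Over all features 48.1% were lower in the first library, 18.5% by more than 0.5, and the median was 0.024. Taken against p0 replicate 1 alone, the mean of the Keniry2022 libraries was higher for 32 of 38 members (median 0.50) and that of Mulas2019 for 33 (median 0.72). Taken against p0 replicate 2 alone, it was higher for 22 (median 0.06) and 26 (median 0.20). In the fit, leaving out p0 replicate 1 gave 6 called members for Keniry2022 (5 higher and 1 lower; 7.25% of all features called) and 17 for Mulas2019 (14 higher and 3 lower; 42.6%). Leaving out p0 replicate 2 gave 29 (68.4%) and 33 (74%). In both of these fits the lone p0 library is assumed to vary like the other groups, whose pairs differed less than the p0 pair did. Regardless of the fit, both p0 libraries lay below all 4 Mulas2019 libraries for 19 of the 38 members (28.7% of all features) and below all 4 Keniry2022 libraries for 13 (19.6%). Col4a1, Col4a2, Fn1, Itga5 and Itgb4 were of the first kind alone, while Itgb5, Actn4, Fermt2 and Tns3 were of the second kind alone.

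**Figure D5:**
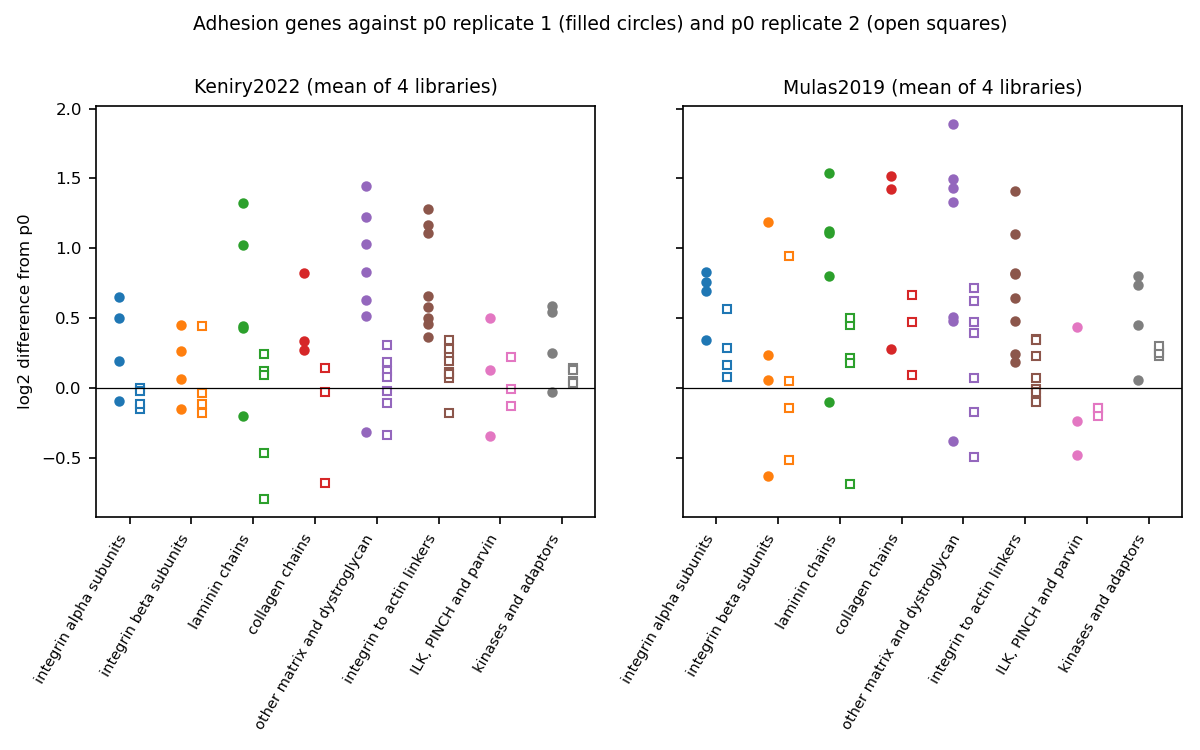
Log2 difference (y axis) of the mean of 4 Keniry2022 libraries (left) and 4 Mulas2019 libraries (right) from each p0 library, for the 38 members by class (x axis). Filled circles, taken against p0 replicate 1, have a median of 0.50 on the left and 0.72 on the right; open squares, against p0 replicate 2, have medians of 0.06 and 0.20.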

How the data were processed

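RNA-seq had been made from 10 libraries of mESCs with single-end reads. The authors deposited 1 table of log2 values for 25965 features. Per the study, HISAT2 aligned the trimmed reads to mm10 and SeqMonk quantified them. In the submitters' notes on processing the tools are TopHat2 2.0.12 and bcl2fastq. Which annotation release and which strand setting were used is not stated there. The table is named for CPM, but its values are log2 RPKM: the authors' software entered 0 reads as 0.9 reads, and these floors follow exon length. Totals and exon lengths worked out from this gave whole reads (within 0.1) for 100% of values. Lengths were accepted only where they gave whole reads, so that share is no check on them. More than 1 length was possible for 2387 features, 7 members among them. For 26 of the 48 members the length was within 5% of that in the GENCODE annotation. Of the total reads of a library 86.0% to 88.8% were in features. At this depth the precision of low members is limited by counting error. No column was left unused.

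Tests were run in R 4.3.3 with limma 3.58.1 (eBayes with an intensity trend, two-sided) on the deposited log2 values, adjusted by Benjamini-Hochberg over the features tested, and called under 0.05. No pseudocount was added. The pooled comparison used 8 libraries without a block, the comparisons by passage and by days a model of 4 groups, and those against p0 a model of 10 libraries. On simulated data the pooled fit (11654 features) recovered 82% of features changed by 0.5 and 97% of those changed by 1, the p10 fit 54% and 91%, and the Mulas2019 fit against p0 (11561 features) 29% and 54%. Each simulation changed 100 features of each size and took its spread from within the groups of 2 libraries. Passage differences, which enter the pooled fit of the real data, were left out, so recovery there can be lower. Alternatives were quantile normalisation, median centring, a filter at a log2 value of 2, no filter, library quality weights, passage as a term, a replicate block, 1 model of 10 libraries, a correction for exon length and GC (splines, 4 degrees of freedom), voom on the recovered whole reads, and leaving out each library.

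Members and lists were chosen with earlier results of these data known. In each class, values in every library are given for up to 3 called members with the widest pooled difference and for the most abundant member, and the other members by their difference or range of reads; other adhesion genes are named where they are among the 2 widest called in each class and direction. Genes are identified by name. The exons or spans of 14 members overlap another feature, and reads there cannot be told apart. Sequences are from RefSeq (GRCm38.p6); 35 members had an upstream window.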

Additional observations from a re-analysis of the deposited data

Results flagged for a closer look

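Among 76 groups of 4 libraries (38 members, each under Keniry2022 and Mulas2019), 3 held a library far from the other 3, where chance gives about 5% of groups. Ilk was lowest in p10 Keniry2022 replicate 1 (3.373, with the others at 3.432 to 3.440). Itga5 was highest in p20 Mulas2019 replicate 1 (5.033, with the others at 4.701 to 4.747). Tln2 was lowest in p20 Mulas2019 replicate 2 (3.087, with the others at 3.253 to 3.284). The gaps made up 0.877, 0.860 and 0.839 of the range of their group.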

How the results depend on the processing

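Between the pooled methods, 18 lower and 7 higher members became 7 and 11 after the correction for exon length and GC, with the median moving from -0.145 to 0.024. With all 10 libraries in 1 model, 5 were lower and 5 higher (19.2% of all features called). In that model, which takes in the spread of the p0 pair, calls fell to 5 at p10 (8.53% of all features). They fell to 1 in the comparison by days (6.43%). At p20 they fell to 0 by limma (2.15%), with 11 members at an unadjusted p of 0.05. Against p0, Keniry2022 gave 1 called member after quantile normalisation (2.59% of all features) and 5 after the correction for length and GC (5.62%). With library quality weights Mulas2019 gave 0 calls by limma in place of 19, with 12 members at an unadjusted p of 0.05. Over all features those weights gave 0% in place of 44.1%. Calls that held under every alternative that could be fitted were Itgb5, Itgb7 and Fermt2 (higher) and Col4a1, Col4a2, Itga5 and Itgb4 (lower). Col4a2 drops out under the stricter filter. Itgb4 was fitted in 13 alternatives, and where its Mulas2019 libraries alone admitted it the call is no support. The share of all features whose calls held in this way is not given here. No called member changed direction except Tln1 (0.1166) and Tln2 (0.0177) after the correction for length and GC. Members without a call that changed sign were Bcar1 (0.0413), Pxn (0.0574), Lama5 (0.1102), Lamb1 (0.1256) and Lamc1 (0.1254) after that correction; Col18a1 (-0.0248), Itgb1 (-0.0933), Nid2 (-0.1071) and Sparc (-0.0549) after quantile normalisation; Nid2 with quality weights (-0.0274); and Itgb1 (-0.0076) and Nid2 (-0.0292) with voom. Leaving out 1 library turned Itgb1 negative without p20 Keniry2022 replicate 1 (range -0.0147 to 0.0494), Col18a1 without p10 Mulas2019 replicate 1 (-0.0018 to 0.0937), and Nid2 without either p20 Keniry2022 library, p10 Mulas2019 replicate 1 or p20 Mulas2019 replicate 2 (-0.027 to 0.038). The cause was not tested.

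Leaving out each library in turn gave 6 to 8 higher and 12 to 18 lower members and a median of -0.161 to -0.116 between the pooled methods. In these pooled fits 43.6% to 49.3% of all features were called. The lower count was 12 without p10 Mulas2019 replicate 2 or p20 Mulas2019 replicate 1. In the fits by passage and by days, dropping a library of a compared group leaves 1 library in it. The share of all features called fell in those fits too. The p10 calls ran from 17 (without p10 Keniry2022 replicate 1 or p10 Mulas2019 replicate 1) to 29, and the p20 calls from 9 (without p20 Mulas2019 replicate 1; 11 without replicate 2) to 18. In the comparison by days the calls ran from 15 (without p20 Keniry2022 replicate 1 or p10 Mulas2019 replicate 1; 16 without p10 Mulas2019 replicate 2) to 23. The change between passages stayed at 0 calls. Against p0, Keniry2022 gave 0 to 29 calls and Mulas2019 9 to 33, with 9 without p20 Mulas2019 replicate 1, 11 without p10 Mulas2019 replicate 2, and 12 without the other library of either group. The 29 and 33 came without p0 replicate 2.

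Replicate numbers did not pair the libraries as given: the deviations of p20 Keniry2022 correlated with those of the other groups at -0.118 to -0.698, and all other pairs at 0.171 to 0.63. With the replicate block of the labels 17 members were lower and 6 higher, and with those of p20 Keniry2022 crossed, an alternative chosen after seeing the data, 18 and 6. The calls lost were Parvb in both and Tln1 in the first.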

Other observations

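Beyond the 48 members, 106 further genes of adhesion and matrix, also listed with earlier results known, were examined by class. Of these, 64 were tested between the pooled methods. In suspension 26 were lower (40.6%, beside 25.5% of all features) and 11 higher (17.2%, beside 25.9%). The counts and differences of these further genes are as deposited, without the correction for exon length and GC that turned the balance of the members. Npnt and Itgal passed the filter through their Mulas2019 libraries alone; without them 24 of 62 were lower and 11 higher. The enzymes and chaperones that process collagen were lower in most cases: 7 of 10 tested were lower and the other 3 were not called. Loxl2, a lysyl oxidase that cross-links collagen, was -2.18 ± 0.27 (adjusted p = 0.000195; 0.000762 with no filter), with levels of -1.19 to 0.13 in the suspended libraries, 1.57 to 1.68 in the attached ones and -0.97 and 0.02 at p0. P4ha2, a subunit of collagen prolyl 4-hydroxylase, was -1.49 ± 0.10 (2.45e-05).

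Of 6 further basement membrane genes tested 4 were lower and 1 higher, with Tinagl1 (-1.09, adjusted p = 0.00101) and nephronectin (Npnt, -0.69, 0.000743 with no filter), a ligand of integrin alpha8 beta1, lower and the laminin chain Lama3 (0.39, 0.0268) higher. Of 12 further integrin subunits only Itgal was tested (-0.73, 0.00149 with no filter). Of 8 matrix receptors tested 2 were lower, Cd47 (-0.77, 0.000484) and the collagen receptor Ddr1 (-0.47, 0.000617), and the tetraspanin Cd151 was higher (0.10, 0.0382). Proteases and their inhibitors gave 2 lower (Mmp15, -0.67; Adam10, -0.16) and 2 higher (Timp1, 0.51; Adam17, 0.23) of 6 tested. Of 33 other focal adhesion genes tested 10 were lower, led by Limd1 (-0.46) and Fyn (-0.41), and 7 higher, led by Yes1 (0.46) and Git1 (0.22). Beside these class counts, 25.5% of all features tested were lower and 25.9% higher. No class was tested as a set.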
